A study of Mus musculus with 10 samples.

Results

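RNA-binding proteins of the granules that carry mRNAs along microtubules were followed through the 10 mRNAs that encode them: Fmr1, Fxr1, Fxr2, Stau1, Stau2, Pura, Purb, Syncrip, Elavl1 and Elavl4. They were chosen by gene symbol, as the rows of the deposited expression table that carry these names, and all 10 of 10 named genes were found. The 10 genes had 20 transcripts, out of 13698 genes and 17292 transcripts in the table. All 10 genes and 15 of the 20 transcripts had a mean of at least 5 TPM (transcript abundance corrected for length and scaled to the library), as did 9853 genes and 11515 transcripts of the whole table.

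RNA was measured in neurites and soma of N2A (Neuro2a) cells, a mouse neuroblastoma line, after the cells were transfected and had grown neurites through a porous membrane. The 5 plasmids expressed CTG480, a DMPK fragment with a long CTG repeat that sequesters the Muscleblind-like (MBNL) proteins; CTG0, the same fragment without the repeat; or the tail of Kif1bα, Kif1c or Kif1bβ, kinesins cut short of their motor domain. The repeat fragments were driven by a CMV promoter and the tails were cloned behind EGFP, and every culture carried 1 of these plasmids, so that none was untransfected. Each transfection gave 1 neurite library and 1 soma library, 10 libraries in all, each pooled from several wells, and the fractionation was done once. CTG0 was the control for CTG480, and the Kif1bβ tail was the control for both other tails.

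Transport granules are large assemblies of mRNA, RNA-binding proteins and ribosomes that kinesin-1 and dynein move along microtubules, with translation of the cargo held back on the way. The fragile X proteins restrain translation of the mRNAs they bind, Staufen proteins recognize double-stranded RNA, the Pur proteins bind purine-rich single strands, Syncrip (hnRNP Q) binds A-rich RNA and the Hu proteins bind AU-rich elements and stabilize their mRNAs. In neurons these proteins are known from dendrites, axons or both, and the position of a protein need not follow that of the mRNA that encodes it. The data here are about the mRNAs alone.

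The values had been scaled between libraries by the authors, and the scaling bears on every comparison of neurites with soma. Over the gene rows the TPM summed to 849069 to 887258 in the neurite libraries, against 1044111 to 1159192 in the soma libraries. Noncoding RNAs took 24.9% to 28.0% of the sum in neurites and 33.2% to 38.7% in soma. As deposited, the median gene had a log2 neurite over soma of 0.01. Once every library was rescaled to the same sum, the median gene stood at 0.35, a shift of 0.34, so that directions below are relative to the median gene as deposited. Of 6 nucleus-retained RNAs taken as a check, 5 reached 5 TPM, and all 5 were lower in neurites (3 after rescaling). Of 6 mRNAs known in protrusions, 5 were higher in neurites (6 after rescaling). Of 12 neuroblastoma and neuronal markers, 9 reached 5 TPM, 2 were not listed or at 0 in the table, and their summed level, of which Prph averaged 1236 TPM in neurites and 975 TPM in soma, was 2422 to 2568 TPM in neurites and 2366 to 2505 TPM in soma. Of these 9 markers, 2 (Tubb3 and Prph) rose in neurites and 6, among them Ncam1, Chga and Stmn2, fell as deposited (3 and 1 after rescaling), with a median log2 ratio of −0.23. Of 16 markers of other cell types, 12 were not listed or at 0 and only Acta2, a smooth muscle actin, reached 5 TPM, with a sum over the list of 104.0 to 124 TPM in neurites and 75.5 to 85.6 TPM in soma. Their part in the results was not tested.

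The levels of the 10 mRNAs spread widely over the range of the expressed genes. Fxr1 was the most abundant, with 250.4 ± 8.70 TPM over the 10 libraries (SD), a level above that of 96.1% of the genes tested. Elavl1 followed with 79.0 ± 2.63 TPM, Syncrip with 59.8 ± 7.56 TPM and Fxr2 with 42.2 ± 3.79 TPM. Stau1 averaged 33.1 ± 1.77 TPM, Purb 29.96 ± 2.07 TPM, Pura 26.5 ± 2.90 TPM, Elavl4 22.6 ± 3.01 TPM and Fmr1 19.7 ± 2.07 TPM. Stau2 was the lowest, with 9.90 ± 1.15 TPM, a level above that of 17.5% of the genes. The ranges over the 10 libraries did not overlap between Fxr1, Elavl1, Syncrip, Fxr2 and Stau1, nor between Fmr1 and Stau2. From Stau1 through Purb, Pura and Elavl4 to Fmr1, each gene's range overlapped that of its neighbour. Within libraries Stau1 exceeded Purb in 10 of 10, and Purb exceeded Pura, Pura exceeded Elavl4 and Elavl4 exceeded Fmr1 in 8 of 10 each. TPM is scaled by transcript length, which allows levels of different genes to be set side by side.

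As deposited, Fxr1 and Elavl1 varied little from library to library. Their coefficients of variation over the 10 libraries were 3.47% and 3.33%, and only 1.88% and 1.46% of the 9853 genes had a lower one, with a median of 9.93% over all genes. The other 8 mRNAs varied by 5.36% (Stau1) to 13.3% (Elavl4). These values take neurite and soma libraries together and so depend on the scaling. After rescaling to equal sums, the log2 neurite over soma was 0.38 for Fxr1 and 0.29 for Elavl1. The ranking was not matched for level, and both mRNAs were abundant, above 96.1% and 86.3% of the genes.

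**Figure D1:**
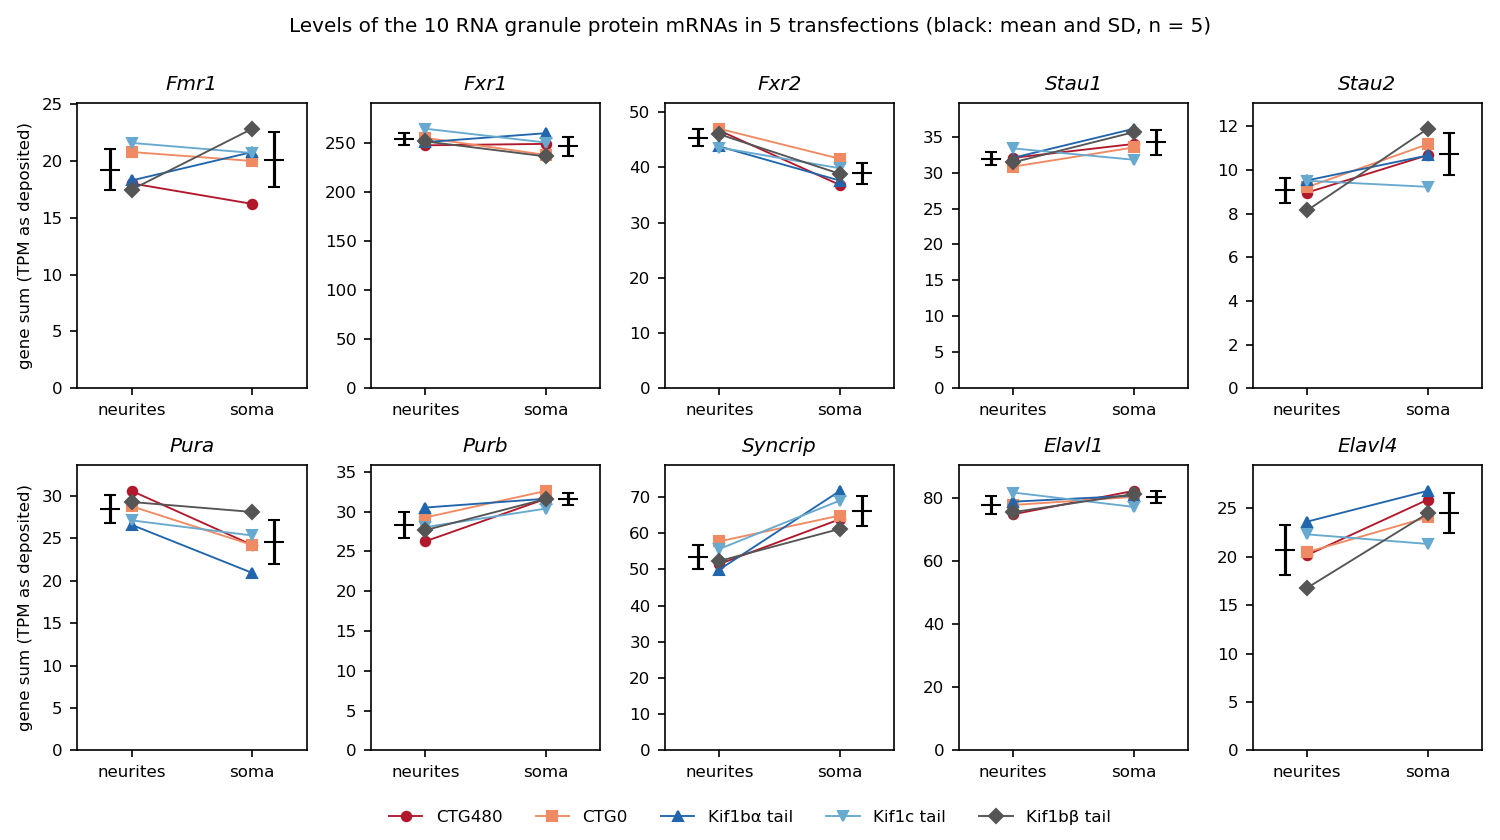
Gene sums in TPM as deposited (vertical axes, each from 0) for the 10 mRNAs in neurites (left) and soma (right); each line joins the 2 libraries of 1 transfection, and black bars give the mean and SD of 5 libraries. Every line of Fxr2 and Pura falls from left to right and every line of Syncrip and Purb climbs, while after rescaling to equal sums Purb was higher in neurites and Syncrip stood at 0.03.

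To ask which of the mRNAs were placed differently in the 2 compartments, neurite and soma libraries were compared over the 5 transfections with limma on log2(TPM + 0.1), with transfection as a block and p-values adjusted over all 9853 genes. The 5 transfections differ in plasmid, so that p measures the spread between transfections and not between replicates of 1 condition. Fxr2 and Pura, 2 of the 10 mRNAs, were higher in neurites, 3 (Syncrip, Purb and Elavl4) were higher in soma, and after rescaling to equal sums 7 were higher in neurites and 0 in soma. As deposited, 19.4% of all genes tested had a call in neurites and 18.6% one in soma (38.0% in either direction). The share called among the 10 was thus not far from the background. After rescaling, calls in neurites took in 7093 of the 9853 genes, and calls in soma 203. The 7 of 10 in neurites therefore did not set these mRNAs apart from the background either. As deposited, the median log2 neurite over soma of the 10 mRNAs was −0.08, against 0.01 for all genes. The count of 2 in neurites was 1 without the CTG0, the CTG480 or the Kif1bα tail libraries, and the count of 3 in soma was 1 without the CTG0, the CTG480 or the Kif1bβ tail libraries. The calls of Fxr2 and Syncrip did not depend on any single transfection.

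Among the fragile X family, only Fxr2 was called as deposited, while after rescaling its 2 relatives were called higher in neurites as well. Differences between these genes were not tested. Fxr2 (chr11:69632971-69653297, plus strand, GRCm38) encodes an autosomal paralog of the fragile X protein. It had 46.7, 47.0, 43.8, 43.6 and 46.0 TPM in neurites of the CTG480, CTG0, Kif1bα tail, Kif1c tail and Kif1bβ tail transfections, against 36.8, 41.6, 37.6, 39.9 and 38.8 TPM in soma. Every neurite library lay above every soma library. The log2 neurite over soma was 0.22 ± 0.044 (SE), higher in 5 of 5 transfections, with an adjusted p of 0.00729 (limma). This direction was kept under both scalings. Without overlap and higher in neurites were 13.7% of all genes, and 33.2% of genes had a log2 ratio of larger size than Fxr2.

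Fxr1 (chr3:34020058-34069980, plus strand), the other autosomal paralog, had 248, 255, 251, 265 and 252 TPM in neurites of the CTG480, CTG0, Kif1bα tail, Kif1c tail and Kif1bβ tail transfections, against 249, 238, 260.0, 250.5 and 236 TPM in soma. The fractions overlapped, and the log2 ratio of 0.04 ± 0.039 (SE) did not pass the test (limma, adjusted p = 0.416), but after rescaling it stood at 0.38 and was called higher in neurites (limma, adjusted p = 0.000319). Fmr1 (chrX:68678536-68717963, plus strand) encodes the fragile X protein itself, whose loss causes fragile X syndrome. It had 18.0, 20.8, 18.3, 21.6 and 17.5 TPM in neurites of the CTG480, CTG0, Kif1bα tail, Kif1c tail and Kif1bβ tail transfections, against 16.2, 20.01, 20.8, 20.7 and 22.8 TPM in soma. The soma library of the Kif1bβ tail was the highest of the 10 and that of CTG480 the lowest, and the fractions overlapped. Its log2 ratio of −0.06 ± 0.082 (SE) did not pass the test (limma, adjusted p = 0.586), while after rescaling it was 0.28 and passed (limma, adjusted p = 0.0155).

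Both Staufen mRNAs had estimates below 0 as deposited that did not pass, and above 0 after rescaling. Stau1 (chr2:166947549-166996315, minus strand) encodes the broadly expressed Staufen. It had 32.1, 30.8, 32.1, 33.4 and 31.4 TPM in neurites of the CTG480, CTG0, Kif1bα tail, Kif1c tail and Kif1bβ tail transfections, against 34.0, 33.5, 36.1, 31.8 and 35.6 TPM in soma. Only the Kif1c tail had more in neurites, and the log2 ratio was −0.10 ± 0.049 (SE; limma, adjusted p = 0.155), and after rescaling 0.24 with a call in neurites (limma, adjusted p = 0.0118). Stau2 (chr1:16228803-16520332, minus strand) encodes the Staufen that is enriched in brain. It had 8.96, 9.21, 9.52, 9.502 and 8.14 TPM in neurites of the same 5 transfections in the same order, against 10.7, 11.2, 10.7, 9.23 and 11.9 TPM in soma. The fractions overlapped through 1 library, the Kif1c tail soma. The log2 ratio was −0.24 ± 0.088 (SE; limma, adjusted p = 0.0684). It passed when the Kif1c tail was left out (−0.31, adjusted p = 0.0336) and in the fit without transfection as a block (adjusted p = 0.0261), and stood at 0.10 after rescaling.

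The Pur mRNAs lay on opposite sides of the median gene as deposited, and both were called higher in neurites after rescaling. Pura (chromosome 18) had 30.6, 28.8, 26.6, 27.1 and 29.3 TPM in neurites of the CTG480, CTG0, Kif1bα tail, Kif1c tail and Kif1bβ tail transfections, against 24.2, 24.2, 20.9, 25.3 and 28.1 TPM in soma. Each transfection had more in neurites, but the Kif1bβ tail soma exceeded the lower neurite libraries, so the fractions overlapped. The log2 ratio was 0.22 ± 0.058 (SE), with an adjusted p of 0.0221 (limma). The call did not hold without CTG0, CTG480 or the Kif1bα tail, with adjusted p up to 0.0729 (limma). Purb (chr11:6467599-6476076, minus strand) had 26.3, 29.3, 30.5, 28.1 and 27.7 TPM in neurites of the same 5 transfections, in the same order, against 31.6, 32.6, 31.6, 30.4 and 31.6 TPM in soma. It was lower in neurites in 5 of 5 transfections, with a log2 ratio of −0.16 ± 0.046 (SE; limma, adjusted p = 0.0314), and at 0.18 after rescaling to equal sums, where it was called higher in neurites (limma, adjusted p = 0.0388). The call as deposited did not hold when CTG0, CTG480, the Kif1bβ tail or the Kif1c tail was left out, with adjusted p up to 0.0999 (limma). Purb is read from a single transcript, and in the fit over 11515 transcripts the same values had an adjusted p of 0.0515 (limma).

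Syncrip had the most negative ratio of the 10 mRNAs. Syncrip (chr9:88449364-88482591, minus strand) encodes hnRNP Q, a granule component related to hnRNP R. It had 51.5, 57.7, 49.9, 55.6 and 52.3 TPM in neurites of the CTG480, CTG0, Kif1bα tail, Kif1c tail and Kif1bβ tail transfections, against 63.8, 64.9, 71.7, 69.0 and 61.2 TPM in soma. Every neurite library lay below every soma library, as in 14.3% of all genes. The log2 ratio was −0.31 ± 0.055 (SE), lower in 5 of 5 transfections (limma, adjusted p = 0.00496), and at 0.03 after rescaling to equal sums. The widest gap was in the Kif1bα tail transfection, at −0.52, and the narrowest in CTG0, at −0.17.

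The 2 Hu mRNAs differed in how far they varied as deposited. Elavl1 (chr8:4284781-4325140, minus strand) encodes HuR, which is made in most cells. It had 74.8, 77.8, 78.8, 81.7 and 75.5 TPM in neurites of the CTG480, CTG0, Kif1bα tail, Kif1c tail and Kif1bβ tail transfections, against 82.3, 80.3, 80.7, 77.2 and 81.2 TPM in soma. The fractions overlapped, and the log2 ratio of −0.05 ± 0.043 (SE) did not pass (limma, adjusted p = 0.403), while after rescaling it was 0.29 and passed (limma, adjusted p = 0.00404). Elavl4 (chr4:110203737-110351939, minus strand) encodes HuD, the neuronal relative that is known to stabilize Gap43 mRNA. It had 20.2, 20.5, 23.6, 22.3 and 16.8 TPM in neurites of the same 5 transfections, in the same order, against 25.9, 24.1, 26.8, 21.3 and 24.5 TPM in soma. The Kif1bβ tail neurites were the lowest of the 10 libraries, and only the Kif1c tail had more in neurites than in soma. The log2 ratio was −0.25 ± 0.083 (SE; limma, adjusted p = 0.0475), and at 0.09 after rescaling. This call lay at the threshold and did not hold when any single transfection other than the Kif1c tail was left out, with adjusted p up to 0.132 (limma), nor with no minimum TPM (0.0649) or with the libraries shifted to the same median (0.0538).

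**Figure D2:**
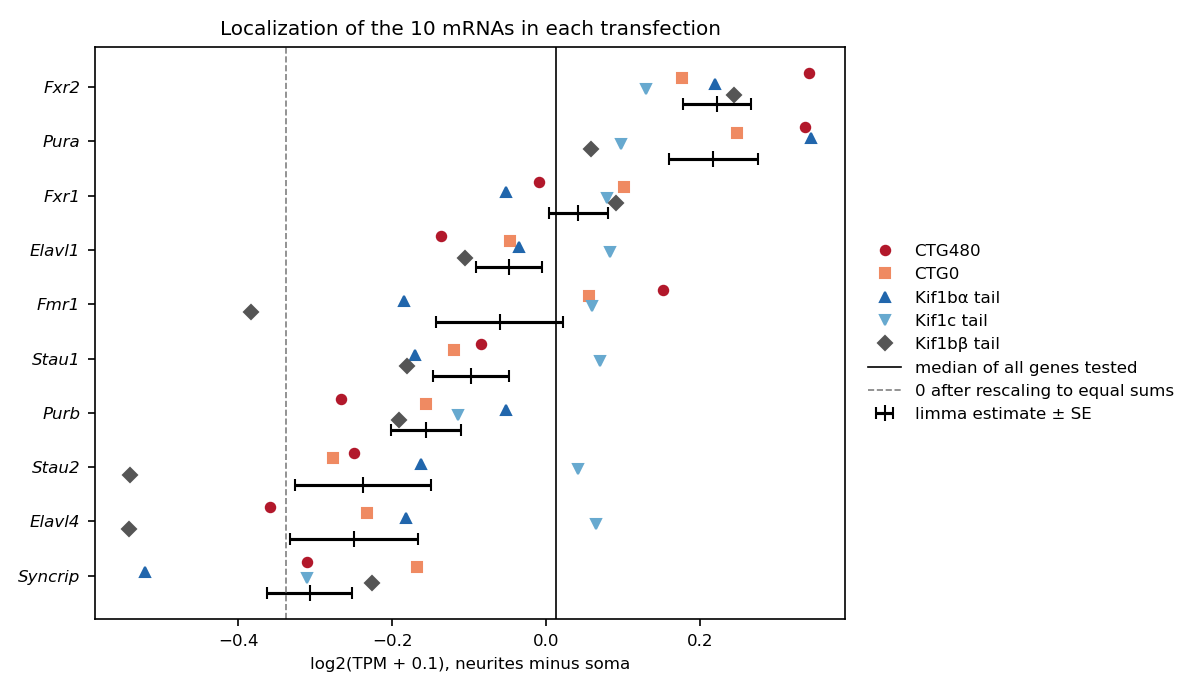
Log2(TPM + 0.1) in neurites minus soma (horizontal axis) for the 10 mRNAs; coloured symbols are the 5 transfections, black bars the limma estimate ± SE and the solid line the median of all genes tested (0.01). The dashed line lies left of 0 by 0.34, the shift of the median gene when every library is rescaled to the same sum. It marks about 0 after rescaling for the limma estimates. For single points it does not, since the shift differs between transfections. Fxr2 and Pura lie to the right of the solid line in every transfection and Syncrip and Purb to its left, but of these only the Kif1bα tail point of Syncrip lies left of the dashed line, and the Kif1bβ tail points of Stau2, Elavl4 and Fmr1 lie far left of the others.

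The transfections were then set against their controls, to ask whether the repeat or the kinesin tails were accompanied by other placement of these mRNAs. With 1 neurite and 1 soma library per transfection these differences have no replicate check, and a log2 difference of at least 0.3 in size was taken as the limit. For CTG480 minus CTG0, 0 of the 10 mRNAs passed it as gene sums, where 20% of all genes did. The differences ran from −0.14 for Syncrip to 0.16 for Fxr2, with a median of −0.03.

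In the Kif1bα tail minus Kif1bβ tail comparison 2 of the 10 mRNAs passed the limit, as did 20.1% of all genes. The log2 neurite over soma of Stau2 was −0.16 with the Kif1bα tail and −0.54 with the Kif1bβ tail, a difference of 0.38. That of Elavl4 was −0.18 with the Kif1bα tail and −0.54 with the Kif1bβ tail, a difference of 0.36. Syncrip lay just inside the limit on the other side, with −0.52 in the Kif1bα tail, −0.23 in the Kif1bβ tail and a difference of −0.29. It passed (−0.30) with the libraries shifted to the same median, but not with equal sums (−0.22). Pura stood at 0.34 with the Kif1bα tail and 0.06 with the Kif1bβ tail, a difference of 0.29. This passed with equal sums (0.36), but not with the libraries shifted to the same median (0.28).

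In the Kif1c tail minus Kif1bβ tail comparison 3 of the 10 passed, against 23.3% of all genes. Elavl4 stood at 0.07 with the Kif1c tail and −0.54 with the Kif1bβ tail, a difference of 0.61. Stau2 stood at 0.04 with the Kif1c tail and −0.54 with the Kif1bβ tail, a difference of 0.58. Fmr1 stood at 0.06 with the Kif1c tail and −0.38 with the Kif1bβ tail, a difference of 0.44. With the libraries rescaled to equal sums 5 mRNAs passed, Stau1 (0.37, from 0.25 as deposited) and Elavl1 (0.31, from 0.19) being added. That rescaling moves this difference by about the same amount in every gene. The 23.3% is as deposited, and the share of all genes under equal sums is not given here. As deposited, the differences of gene sums that passed were higher ratios with the tail than with the Kif1bβ tail. Both comparisons share the Kif1bβ tail libraries, in which these 3 mRNAs had their lowest ratios of the 5 transfections, so the 2 sets of differences are not separate measurements.

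**Figure D3:**
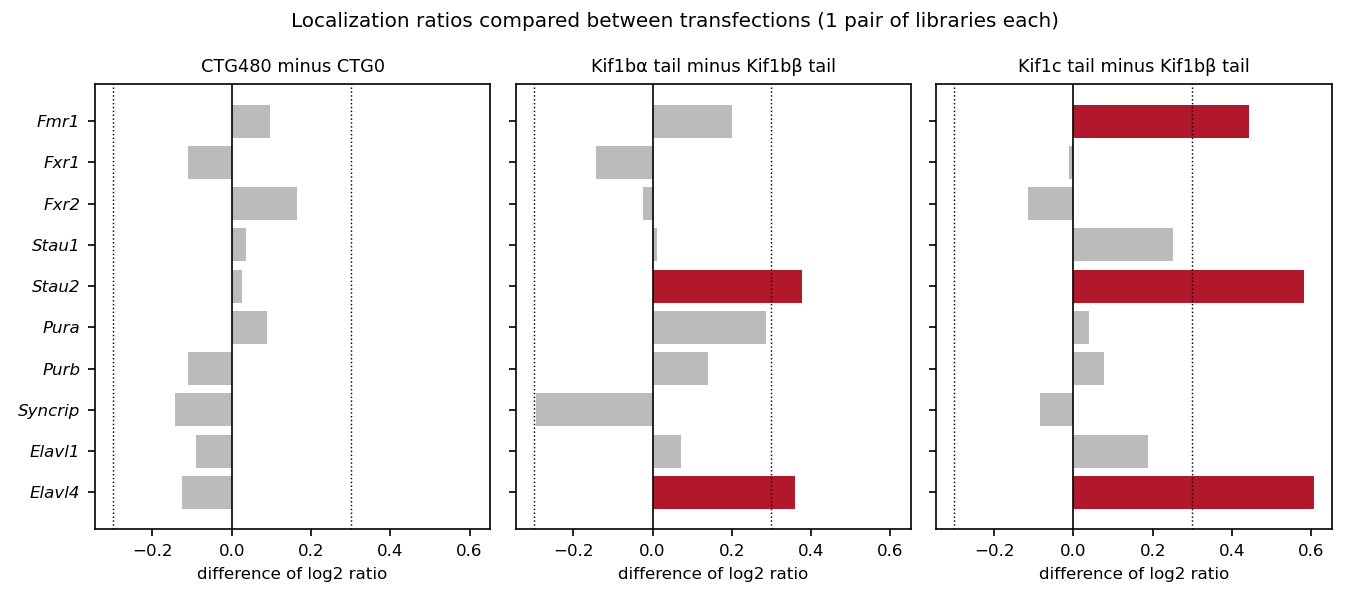
Difference of log2 neurite over soma (horizontal axes) for the 10 mRNAs, for CTG480 minus CTG0, Kif1bα tail minus Kif1bβ tail and Kif1c tail minus Kif1bβ tail, each from 1 pair of libraries per transfection, with dotted lines at ±0.3 and values past them in red. No bar passes in the CTG480 panel, Stau2 and Elavl4 pass in the second and Fmr1, Stau2 and Elavl4 in the third, which share the Kif1bβ tail libraries.

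The levels of the gene sums in each compartment were then set side by side. Elavl4 had 23.6 TPM in Kif1bα tail neurites and 22.3 TPM in Kif1c tail neurites, against 16.8 TPM in Kif1bβ tail neurites, log2 ratios of 0.49 and 0.41. In neurites, differences of 0.3 or more were seen in 11.1% of all genes for the Kif1bα tail and 13.0% for the Kif1c tail. Its soma levels differed less, by 0.13 for the Kif1bα tail and −0.20 for the Kif1c tail. Stau2 differed in both compartments: it had 9.52 TPM in Kif1bα tail neurites and 9.502 TPM in Kif1c tail neurites, against 8.14 TPM in Kif1bβ tail neurites, log2 ratios of 0.22 each. In soma it had 10.7 TPM with the Kif1bα tail and 9.23 TPM with the Kif1c tail, against 11.9 TPM with the Kif1bβ tail, log2 ratios of −0.16 and −0.36, and the Kif1c tail value was past the limit, as in 11% of genes. Fmr1 had 21.6 TPM in Kif1c tail neurites against 17.5 TPM in Kif1bβ tail neurites, a log2 ratio of 0.30 at the limit that was below it with a pseudocount of 1 TPM. Pura had 20.9 TPM in Kif1bα tail soma against 28.1 TPM in Kif1bβ tail soma, a log2 ratio of −0.42, which was past the limit for 10.3% of genes. Fmr1 in CTG480 soma had 16.2 TPM against 20.01 TPM in CTG0 soma, a log2 ratio of −0.30 that was at the limit and no longer past it under 3 other settings, where 9.08% of genes passed as deposited, and in CTG480 neurites 0 of the 10 mRNAs passed, against 12.5% of genes. No other gene sum of the 10 differed by 0.3 or more between these transfections.

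When the 3 perturbed transfections were compared with the 2 control transfections by limma on the localization ratios, 0 of 9853 genes passed (0.0%), and 512 genes (5.2%) had an unadjusted p under 0.05, none of them among the 10. Stau2 came closest, with a mean ratio of −0.12 in the perturbed and −0.41 in the control transfections, a difference of 0.29 ± 0.139 (SE; limma, adjusted p = 0.961). Syncrip had the lowest difference, −0.18 ± 0.115 (SE; limma, adjusted p = 0.969), with means of −0.38 and −0.20 in perturbed and control transfections.

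Fxr1, Stau1, Stau2, Syncrip and Elavl4 were quantified as more than 1 transcript, 15 in all. Short stretches show 1 place at which forms of a gene part, and other differences along the same mRNAs are not shown. They were read from GENCODE transcripts on GRCm38, to which all 20 RefSeq transcripts matched, and each stretch is from the coding part of the mRNA, 5′ to 3′. The forms of Syncrip end in different coding pieces: NM_019666 reads on in the same exon for 222 coding bases, whereas NM_019796 and NM_001284328 splice to a last exon whose coding part has 39 and 36 bases. Capitals mark the bases after the last shared one. The whole stretch of NM_019666 lies at chr9:88456348-88456377, the shared bases of the other forms at chr9:88456363-88456377, and their capitals at chr9:88454281-88454295 (NM_019796) and chr9:88454278-88454292 (NM_001284328).
Syncrip NM_019666: caaagaggccgcgggGTACGTGGTGCAAGG
Syncrip NM_019796: caaagaggccgcgggCAGGGAAAAGGGGTC
Syncrip NM_001284328: caaagaggccgcgggGGAAAAGGGGTCGAG

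The forms of Elavl4 begin in different first coding exons, of 9, 24 and 18 bases in NM_001038698, NM_001163399 and NM_001163397. Capitals mark the bases of that exon, at chr4:110287233-110287241, chr4:110286470-110286493 and chr4:110351797-110351814 in the same order, and lower case the shared exon that follows. Their whole coding parts have 1140, 1113 and 1068 bases, so these forms also differ further inside.
Elavl4 NM_001038698: ATGGTTATGataattagcaccatggagcct
Elavl4 NM_001163399: ATGGAGTGGAATGGCTTGAAGATGataatt
Elavl4 NM_001163397: ATGAGGCTCCAGAACCAGataattagcacc

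Stau1 NM_001109906 holds 18 more coding bases than NM_001109905 at the start of an exon, in capitals below. Fxr1 NM_001113189 holds an exon of 92 bases that NM_008053 lacks, the first of whose bases are in capitals, and NM_001113188 has a further exon of 81 bases.
Stau1 NM_001109906: tttgagTCTTTCCTTCTGACACAGgtggcc
Stau1 NM_001109905: cctgtgaattttgaggtggcccgggagagt
Fxr1 NM_001113189: atgagaatgggctagTCACAGTTGCAGATT
Fxr1 NM_008053: atgagaatgggctaggcaaaagatgtgatt

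The forms of a gene share most of their sequence, so kallisto split the reads between them by estimation, with an error that the files do not give. Of the 15 transcripts of the 10 genes at 5 TPM or more, 2 were higher in neurites and 2 in soma in a limma fit over 11515 transcripts, in which 13.8% passed with more in neurites and 13.8% with more in soma, 27.6% in all. In neurites these were the single transcripts of Fxr2 (adjusted p = 0.0148) and Pura (adjusted p = 0.0409). In soma these were Syncrip NM_019666 (log2 ratio −0.34 ± 0.090 SE, limma adjusted p = 0.0341) and Elavl4 NM_001038698 (−0.34 ± 0.099 SE, limma adjusted p = 0.0452). The transcript fit was not run on equal sums, under which the gene sums of Syncrip and Elavl4 stood at 0.03 and 0.09. None of the 4 calls held in all 5 fits that left out 1 transfection, in which 0 to 1 transcripts were higher in neurites and 0 to 1 in soma, with 0 in neurites without the Kif1bβ tail and 0 in soma without CTG480, the Kif1bα tail or the Kif1bβ tail.

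Syncrip NM_019666, the form that reads on, had 33.5, 40.4, 30.9, 35.0 and 36.2 TPM in neurites of the CTG480, CTG0, Kif1bα tail, Kif1c tail and Kif1bβ tail transfections, against 41.6, 43.6, 49.1, 48.7 and 39.8 TPM in soma. The fractions overlapped only through CTG0 neurites and Kif1bβ tail soma. NM_019796, with the longer spliced end, had 11.5 ± 1.21 TPM in neurites and 13.5 ± 1.59 TPM in soma (SD, n = 5 each), a log2 ratio of −0.23 that did not pass (limma, adjusted p = 0.0885). NM_001311113, with a coding part of 1392 bases, averaged 3.69 ± 1.33 TPM in neurites and 5.37 ± 1.90 TPM in soma (SD, n = 5 each), and NM_001284328 averaged 3.04 ± 0.930 TPM in neurites and 2.64 ± 1.08 TPM in soma (SD, n = 5 each). Both were under 5 TPM and were not tested.

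Elavl4 NM_001038698 had 9.15, 10.97, 12.0, 13.1 and 10.6 TPM in neurites of the CTG480, CTG0, Kif1bα tail, Kif1c tail and Kif1bβ tail transfections, against 12.6, 14.03, 16.3, 12.5 and 15.5 TPM in soma. The Kif1c tail was again the only transfection with more in neurites. NM_001163399 fell to 2.79 TPM in Kif1bβ tail neurites, against 6.17 to 9.12 TPM in the other 4 neurite libraries, and had 6.59 to 9.95 TPM in the 5 soma libraries. Its log2 ratio of −0.40 ± 0.242 (SE) did not pass (limma, adjusted p = 0.263). NM_001163397 was under 5 TPM, with 3.002 ± 1.15 TPM in neurites and 2.25 ± 0.715 TPM in soma (SD, n = 5 each).

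The 2 forms of Stau2 have coding parts of 1710 bases (NM_025303) and 1614 bases (NM_001111272) and differed in spread. NM_025303 had 3.64, 4.54, 3.45, 3.27 and 3.31 TPM in neurites of the CTG480, CTG0, Kif1bα tail, Kif1c tail and Kif1bβ tail transfections, against 7.51, 5.30, 5.58, 4.90 and 3.99 TPM in soma. It had less in neurites in 5 of 5 transfections, but with a mean under 5 TPM it was not tested, and the fractions overlapped. NM_001111272 had 5.32, 4.67, 6.07, 6.23 and 4.84 TPM in neurites of the same transfections in the same order, against 3.17, 5.87, 5.08, 4.33 and 7.89 TPM in soma, with no common direction (limma, adjusted p = 0.795).

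Set between transfections, 5 of the 15 transcripts at 5 TPM passed the limit of 0.3 for CTG480 minus CTG0, where 31.5% of all 11515 transcripts did. Stau2 NM_001111272 had a log2 neurite over soma of 0.73 with CTG480 and −0.33 with CTG0, a difference of 1.06, with 3.17 TPM in CTG480 soma against 5.87 TPM in CTG0 soma. Fxr1 NM_008053 (−0.57), Stau1 NM_001109905 (−0.54), Elavl4 NM_001163399 (−0.53) and Syncrip NM_019796 (−0.39) had lower ratios with CTG480. Gene sums of these 5 genes did not pass.

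For the Kif1bα tail minus the Kif1bβ tail 6 of the 15 transcripts passed, 3 in each direction, against 31.6% of all transcripts, and for the Kif1c tail 8 passed, 6 of them with higher ratios than in the Kif1bβ tail, against 34.1%. Elavl4 NM_001163399 had the largest differences of the 15, 1.54 for the Kif1bα tail and 1.48 for the Kif1c tail, with 9.12 and 7.002 TPM in neurites of those tails against 2.79 TPM in Kif1bβ tail neurites. The main forms of Stau1 went apart with the Kif1bα tail, NM_001109905 by 0.73 and NM_001109906 by −0.54, and not with the Kif1c tail, by 0.63 and 0.33. These differences rest on 1 estimate per form and library and have no replicate check.

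A single factor per library leaves the shares of the forms within a gene as they are, whereas the cyclic loess of the authors, which acts by level, can move them. Fxr1 was split most evenly between libraries: NM_001113189 made up 44.9% to 51.2% of the gene sum, NM_008053 28.9% to 36.6% and NM_001113188 15.7% to 21.6%. In Syncrip NM_019666 held 65.8% ± 3.68 in neurites and 67.3% ± 2.35 in soma (SD, n = 5 each). In Stau1 NM_001109905 and NM_001109906 held 49.8% ± 7.62 and 41.1% ± 8.75 in neurites, against 47.1% ± 11.4 and 43.2% ± 7.18 in soma (SD, n = 5 each), and their order changed between transfections. NM_001291160, with a coding part of 1455 bases, held 1.61% to 18.6% of Stau1. In Stau2 NM_001111272 held 59.8% ± 5.74 in neurites and 48.6% ± 13.2 in soma, 11.1 points higher in neurites and higher in 3 of 5 transfections (SD, n = 5 each; exact sign-flip permutation test, 2-sided p = 0.25). In Elavl4 NM_001163397 held 14.95% ± 6.65 in neurites and 9.18% ± 2.72 in soma, 5.77 points higher in neurites and higher in 4 of 5 transfections (SD, n = 5 each; exact sign-flip permutation test, 2-sided p = 0.125). Of the 15 shares tested, these 2 genes held the smallest p, 5 transfections cannot give a p below 0.0625, and 0 of the 15 shares reached it, so no shift of form between the compartments was resolved.

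**Figure D4:**
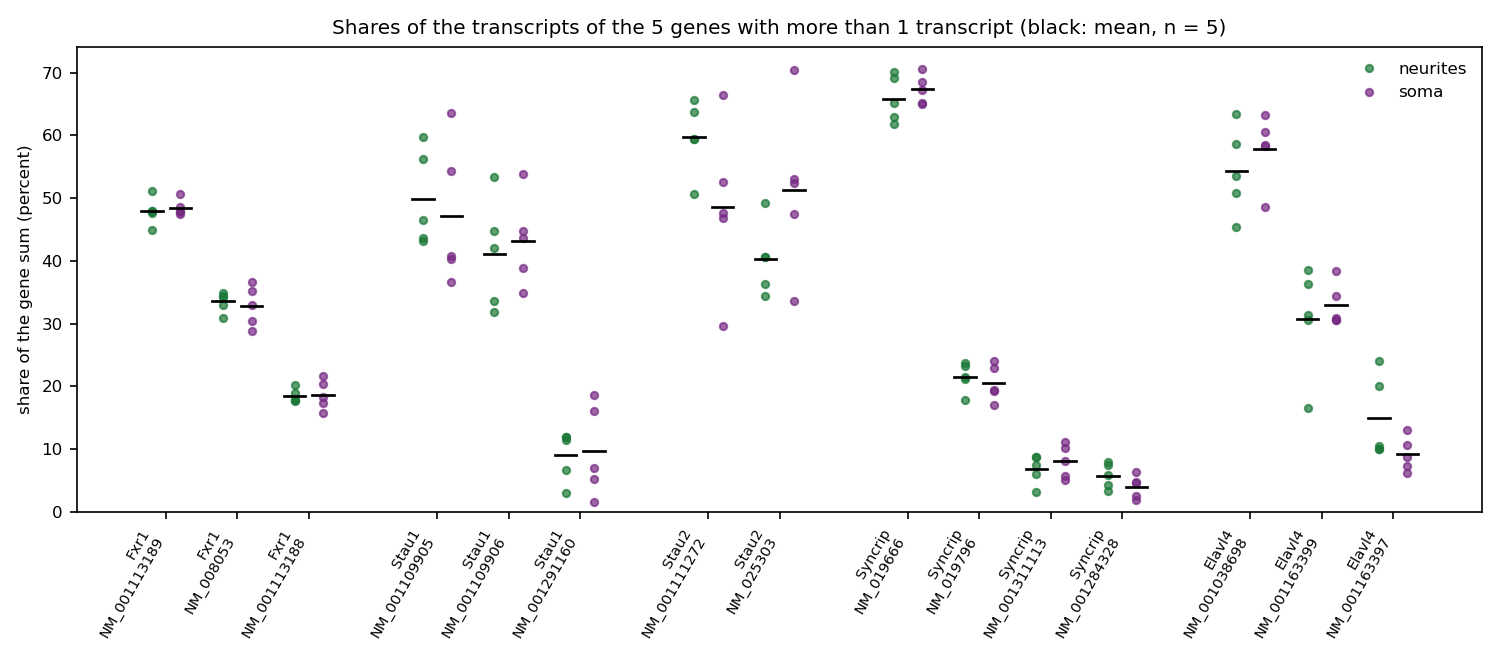
Share of each transcript in the gene sum (vertical axis, percent) for the 5 genes with more than 1 transcript, in neurites (green) and soma (purple); points are the 5 transfections and black lines their means. Neurite and soma points overlap for all 15 transcripts, with the widest spread in Stau2 and Stau1 and the narrowest in the small forms of Syncrip and in Fxr1.

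The mRNAs also differ in length and in the sequence of the 3′ untranslated region (UTR). In the GENCODE models the 3′ UTR ran from 255 bases (Fxr1 NM_001113188) to 7313 bases (Purb), with a median of 929 bases over the 10923 coding transcripts at 5 TPM with a model. Purb, Syncrip NM_019796 (7245 bases) and NM_001311113 (4523 bases), Pura (4408 bases) and Elavl1 (4218 bases) were among the longest. Each was longer than 94.9% or more of the transcripts. The models need not end where the quantified RefSeq transcripts do. That of NM_019796 ended at chr9:88447009, outside the RefSeq gene, which ends at 88449364 on that side. MBNL proteins, which the CTG repeat sequesters, bind TGCT or TGCC, and the same letters with C in the first place (CGCT or CGCC), all counted here on the mRNA strand with overlapping matches included. Of 10301 transcripts with a 3′ UTR of at least 100 bases, 98.1% held at least 1 such match, with a median of 12.9 per kilobase. Fmr1 had 5.68 per kilobase, with 6.44% of transcripts lower, and Purb had 6.97. Fxr2 had 16.7 per kilobase and Fxr1 NM_001113188 19.6, the highest of the 20 models, from 5 matches in 255 bases. That model ended at chr3:34069342, short of the end of the RefSeq gene at 34069980, so its density is that of the model. Fxr1 NM_008053, with a 3′ UTR of 1389 bases, had 9.36 per kilobase, with 22.8% of transcripts lower. A match describes the letters only.

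Other genes of the granule pathway were taken from lists of known components. Of 13 further components of granules bound to kinesin-1, 3 rose in neurites and 1 fell as deposited (13 and 0 after rescaling), with a median log2 ratio of 0.06. The export adaptor Alyref (0.23; limma, adjusted p = 0.00495) and the splicing regulator Hnrnpa1 (0.23; limma, adjusted p = 0.0107) were higher in neurites, and the paraspeckle protein Sfpq was lower as deposited (−0.12; limma, adjusted p = 0.0347) and at 0.22 after rescaling. Hnrnpr, the close relative of Syncrip, stood at 0.14 and did not pass as deposited (limma, adjusted p = 0.0533). After rescaling it stood at 0.48 and was called higher in neurites (limma, adjusted p = 0.000179). As deposited it lay on the other side of the median gene from Syncrip, a difference that was not tested. Of 16 other RNA-binding proteins of granules, 2 rose in neurites and 2 fell (14 and 0 after rescaling), among them Tardbp (0.15; limma, adjusted p = 0.0268) and the polyadenylation element binder Cpeb4 (−0.23; limma, adjusted p = 0.0219, and 0.10 after rescaling). Anxa11, which links granules to lysosomes, at 0.32 and Elavl3, another neuronal Hu protein, at −0.15 did not pass as deposited (limma, adjusted p = 0.0693 and 0.105). After rescaling Anxa11 was called higher in neurites (0.66; limma, adjusted p = 0.0016) and Elavl3 did not pass (0.19; limma, adjusted p = 0.0673).

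Of 7 partners of the fragile X protein, 0 were higher in neurites and 2 in soma as deposited (5 and 0 after rescaling). Nufip2 had 23.7 TPM in neurites and 31.5 TPM in soma, a log2 ratio of −0.41 (limma, adjusted p = 0.00153) that did not pass after rescaling, at −0.07 (limma, adjusted p = 0.42). The Argonaute Ago2 stood at −0.12 (limma, adjusted p = 0.0476), and at 0.22 after rescaling, while Mov10 (0.14) and Nufip1 (−0.12) did not pass as deposited. After rescaling Mov10 was called higher in neurites (0.48; limma, adjusted p = 0.00131) and Nufip1 did not pass (0.21; limma, adjusted p = 0.0605). Of 8 mRNAs of motor subunits, 2 rose in neurites and 1 fell (7 and 0 after rescaling). The kinesin-1 subunits Klc4 (0.39; limma, adjusted p = 0.0143) and Kif5b (0.23; limma, adjusted p = 0.004) were higher in neurites. The dynein heavy chain Dync1h1 was lower in neurites as deposited (−0.35; limma, adjusted p = 0.0023) and did not pass at −0.01 after rescaling (limma, adjusted p = 0.917). The kinesin light chain Klc2 at 0.19 did not pass as deposited (limma, adjusted p = 0.0659), but was called higher in neurites after rescaling (0.53; limma, adjusted p = 0.000226).

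Of 13 mRNAs known to be carried in granules or bound by these proteins, 1 was higher in neurites and 4 in soma (9 and 1 after rescaling), with a median of 0.03. Arc, an immediate early gene of dendrites, was higher in neurites (0.30; limma, adjusted p = 0.00598). App, the amyloid precursor and a fragile X protein target, had 241 TPM in neurites and 350.1 TPM in soma, a log2 ratio of −0.54 (limma, adjusted p = 0.000437) and of −0.20 after rescaling (limma, adjusted p = 0.0181). Map1b, another such target, stood at −0.40 (limma, adjusted p = 0.000791) and did not pass after rescaling (−0.06; limma, adjusted p = 0.428), and Mapt, which HuD binds, at −0.23 (limma, adjusted p = 0.00887) and 0.11 after rescaling. These lists were not tested as sets. Their counts as deposited are to be read beside the 19.4% and 18.6% of all genes. Those after rescaling are to be read beside the 7093 of 9853 genes then higher in neurites and the 203 higher in soma.

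The gene whose levels followed each mRNA most closely over the 10 libraries was looked up among 5519 genes with a mean of at least 20 TPM, by Pearson's r of log2(TPM + 0.1). The closest pairs were Syncrip with Eif2s2 (r = 0.99) and Fxr2 with Hap1 (r = 0.99). Purb was closest to Srsf11 (0.98), Elavl4 to Sp3 (0.97), Stau2 to Cacng3 (0.96), Stau1 to Mllt10 (0.95), Pura to Mrpl12 (0.95) and Elavl1 to Sec24b (0.95). Fxr1 with Snw1 (0.92) and Fmr1 with Tcf12 (0.87) had the lowest best values. Each is the highest of 5519 values over 10 libraries that share the difference between compartments and the scaling, and is given as a description.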

How the data were processed

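Neurite and soma RNA of 5 transfections of N2A cells was measured, 1 library each. The deposited signal values are linear TPM: the authors made reads with bcl2fastq 2.20, ran kallisto 0.43.0 against RefSeq transcripts of mm10, and brought the libraries' TPM together by cyclic loess, so library sums differ. The deposited table has no counts, and read depth is therefore unknown. A second deposited table, the authors' log2(neurite/soma), was not used.

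Of 17300 rows, 8 (plasmids or no gene name) were left out, and gene levels are sums over transcripts. Neurites and soma were compared with limma 3.58.1 in R 4.3.3 (lmFit, eBayes with trend) on log2(TPM + 0.1), for means of at least 5 TPM, with transfection as a block, since both fractions of a transfection came from the same cultures, at a Benjamini-Hochberg adjusted p under 0.05. Deviations of the 2 fractions of a transfection correlated by −0.03 to 0.05 (5 pairs), against −0.12 to 0.10 for 20 other pairs. Shares were tested with an exact sign-flip permutation test, differences between transfections not at all (limit 0.3 on the log2 scale). Calculations used Python 3.11.15, numpy 2.4.6 and pandas 2.3.3, and limma was tested on simulated data.

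The 10 genes, the lists and the rule for named genes (all transcripts of the 10, up to 4 genes of each list with the largest log2 ratios, and the most alike gene of each) were chosen with earlier results of these data known. Alternatives were the pseudocount, the minimum TPM, no block, no trend, 2 other scalings, protein-coding accessions only and leaving out each transfection. Subtracting the shift of the median gene was added after seeing the data, and by construction gives back about the deposited estimates.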

Additional observations from a re-analysis of the deposited data

Results flagged for a closer look

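In 50 sets of 5 libraries of 1 compartment (each gene and transcript of the 10), 1 value lay far from the other 4 in 2 sets, where chance gives about 1 in 20, or 2.5. Fxr1 NM_008053 had 76.7 TPM in CTG480 neurites, against 86.4 to 89.1 TPM in the other 4 neurite libraries. Stau2 NM_025303 had 4.54 TPM in CTG0 neurites, against 3.27 to 3.64 TPM in the others.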

How the results depend on the processing

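Rescaling every library to the same sum moved the median gene by 0.34 on the log2 scale: 7093 genes were then higher in neurites and 203 in soma (1911 and 1835 as deposited), and of the 10 mRNAs 7 and 0. Estimates that changed sign were Fmr1 (0.28), Stau1 (0.24), Stau2 (0.10), Purb (0.18), Syncrip (0.0315), Elavl1 (0.29) and Elavl4 (0.0877). In the Kif1c tail comparison 5 mRNAs then passed the limit of 0.3, under a shift that all genes share. The count of soma levels past it for CTG480 was 0 in place of 1 with a pseudocount of 1 TPM and under both other scalings, and that of neurite levels for the Kif1c tail was 1 in place of 2 with that pseudocount.

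Without transfection as a block, Stau2 (0.0261) and the Purb transcript (0.0255) passed (limma, adjusted p), and no other call of the 10 changed. With a minimum of 1 TPM, 1 transcript was higher in neurites and 1 in soma. Elavl4 did not pass without trend (adjusted p = 0.0598, limma). Leaving out 1 transfection gave 1 to 2 of the 10 genes higher in neurites and 1 to 3 in soma, 0 to 1 and 0 to 1 transcripts, and over all transcripts 815 to 1224 and 968 to 1307, from 1594 and 1585. Estimates that had not passed changed sign in some of these fits: Fmr1 with its transcript NM_008031 (−0.11 to 0.0206), NM_001113188 (−0.0199 to 0.0723), NM_001109905 (−0.0898 to 0.11) and NM_001111272 (−0.063 to 0.29), and, for perturbed against control, Fmr1 (−0.0463 to 0.39), Fxr2 (−0.0358 to 0.0701), Purb (−0.0173 to 0.0902) and Elavl1 (−0.0093 to 0.10). The causes were not tested. The table has no counts, so no counting error can be given.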
